A study of Mus musculus with 4 samples.

Results

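The genes described here encode the collagens, the laminins, the integrins, and 5 glycoproteins that link or bind them: fibronectin (Fn1), the nidogens (Nid1 and Nid2), perlecan (Hspg2) and Sparc. They were taken by symbol, and 56 of the 13815 rows of the mRNA table qualified: 24 collagens, 9 laminins, 18 integrins and the 5 glycoproteins. The cells were V6.5 mouse embryonic stem cells, grown with leukaemia inhibitory factor and serum. One polyadenylated RNA library was made from WT cells, 1 from Dgcr8-/- cells and 1 from Dicer-/- cells, and 1 small RNA library from WT cells. The labels name V6.5 as the strain of all of them. They do not describe the knockout alleles or say whether each knockout line is 1 clone. DGCR8 is the partner of Drosha in the nuclear cleavage of primary miRNA transcripts, and Dicer cuts the released hairpins. The comparisons therefore ask what the levels of matrix and adhesion transcripts are where an early or a later step of miRNA production is targeted.

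Laminins are cross-shaped trimers of an alpha, a beta and a gamma chain that polymerise into the first sheet of a basement membrane. Type IV collagen forms a second network, and nidogens and perlecan tie the networks together. Integrins are heterodimers of an alpha and a beta chain that bind these proteins at the cell surface and connect them to actin. Embryonic stem cells and the early embryo make basement membrane components, and laminin and fibronectin are substrates on which stem cells are grown.

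Each group had 1 library, so no test between groups was possible and differences between the cultures cannot be told apart from the genotype. The libraries held 9931625 counts (WT), 11123498 (Dgcr8 knockout) and 12309100 (Dicer knockout). Counts were scaled to 1000000 counts per library (CPM), and ratios of CPM are given with exact 95% intervals that cover counting error only. Calls, higher or lower, needed a 2-fold ratio on the log2(CPM + 1) scale, among rows at 1 CPM or more in 1 of the 2 libraries compared. Dgcr8 had 52.7 CPM in WT and 20.9 in its own knockout, and Dicer1 had 79.9 CPM in WT and 20.1 in its own knockout. All 10 pluripotency markers checked were above 0 in each library, with Pou5f1 between 1635 and 2207 CPM, and in each knockout 1 was called higher and 3 lower. Over all rows compared 14.3% were called higher and 8.02% lower in the Dgcr8 knockout, and 16.0% and 9.7% in the Dicer knockout. Fgf4 was higher in both, Lin28a (151, 30.03 and 44.8 CPM) and Tdgf1 (1486, 471 and 421 CPM) were lower in both, Dppa5a was lower in Dgcr8-/- cells and Zfp42 in Dicer-/- cells. No transcript lengths were used here, so levels are compared between libraries for one gene and not between genes.

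Of the miRNAs reported to bind matrix transcripts, the miR-29 family is the best known for collagens. Its 3p arms are shown because they share 1 seed, bases 2 to 8 in capitals, and because several collagens are among their reported targets. The sequences are RefSeq's, build GRCm38.p6, 5′ to 3′.
mmu-miR-29a-3p: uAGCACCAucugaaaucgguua
mmu-miR-29b-3p: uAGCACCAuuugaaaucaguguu
mmu-miR-29c-3p: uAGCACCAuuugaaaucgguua
In the WT small RNA library miR-29b-3p had 785 of 2594949 reads, 303 reads per 1000000 reads (RPM; 95% exact interval 282 to 324). It ranked 96 among the 707 miRNAs listed. miR-29a-3p had 56 reads and miR-29c-3p 33, so the 3 arms together made 337 RPM (315 to 360). The neural miRNA miR-124-3p, reported to bind laminin and integrin transcripts, had 990 reads, 382 RPM (358 to 406). Both families were thus present at low shares in WT cells. Small RNA of the knockouts was not analysed here.

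The genes of the group together took 0.334% of all counts in WT (95% exact interval 0.331 to 0.338), 0.534% in Dgcr8-/- (0.530 to 0.538) and 0.493% in Dicer-/- cells (0.489 to 0.497). Both knockouts were above WT in each of the 4 classes, and the sums of the laminins, for example, were 770 CPM in WT, 1194 CPM in Dgcr8-/- and 1015 CPM in Dicer-/- cells. These sums rest on abundant genes and do not describe most members. In the Dgcr8 knockout against WT, 51 of the 56 members could be compared, 7 were called higher and 15 lower. Over all 13223 rows compared, 14.3% were called higher and 8.02% lower. In the Dicer knockout against WT, 8 of 53 members were higher and 16 lower, beside 16.0% and 9.7% of 13403 rows. The members' median log2 ratio to WT was -0.43 in Dgcr8-/- cells and -0.28 in Dicer-/- cells, where the medians of all rows were 0.11 and 0.10. The sign turned with the floor, since the medians were 0.59 and 0.37 among members at 5 CPM or more in 1 of the 2 libraries. Among all rows at that floor they were 0.15 and 0.12. Members with 0 counts in 1 library lie on the same side of the members' medians at their bounds. Of all calls in Dgcr8-/- cells 64.1% were higher, and 53.6% with median-ratio scaling, under which 7 members were higher and 17 lower. With that scaling 11.8% of all rows were higher and 10.2% lower.

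The members divide by level. Of the 29 members that reached 10 CPM in at least 1 library, 7 were higher and 3 lower in the Dgcr8 knockout, and 7 higher and 5 lower in the Dicer knockout. Rows at that level were higher in 14.7% and lower in 5.29% in the first comparison, and higher in 15.3% and lower in 7.2% in the second. Of the 27 members below 10 CPM in every library, 0 of 22 compared were higher and 12 lower in the Dgcr8 knockout, beside 13.1% and 15.7% of rows at that level. In the Dicer knockout 1 of 24 was higher and 11 lower, beside 17.9% and 16.5%. Most of the lower calls below 10 CPM were fixed by the floor. In the first comparison 14 members passed it only through WT (9 of them called lower) and 13 in the second (10 of them called lower). These members were all below 10 CPM in every library and could not have been called higher. The share of all rows that passed only through WT was not analysed here. The division at 10 CPM follows the level used to name genes and was applied to these counts after values had been seen.

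**Figure D1:**
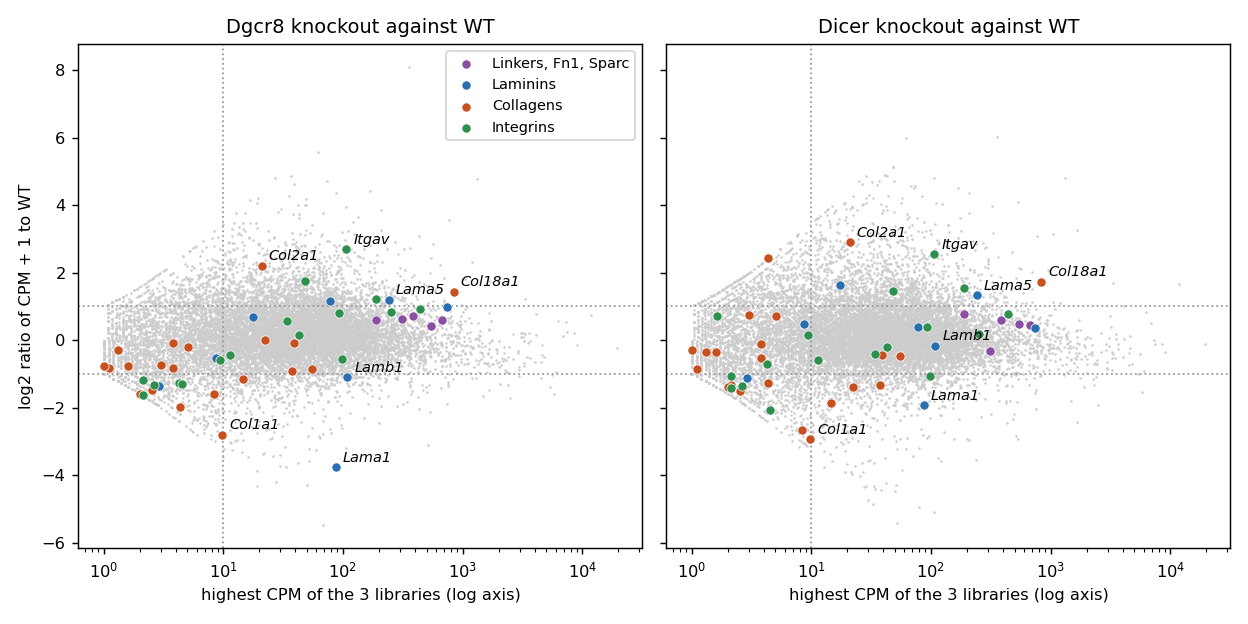
Log2 ratio of CPM + 1 to WT (vertical) against the highest CPM of the 3 libraries (horizontal, log axis) for all rows compared (grey) and for the collagens, laminins, integrins and linker glycoproteins (coloured), 1 library per group. Dotted lines mark 2-fold and 10 CPM; members below 10 CPM lie mostly under 0, while those above it spread to both sides, from Lama1 to Itgav.

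Among the laminin alpha chains, Lama1 was lower and Lama5 higher in both knockouts. Lama1, the alpha chain of the earliest embryonic laminin, had 867 counts in WT, 61 in Dgcr8-/- and 272 in Dicer-/- cells. These are 87.3, 5.48 and 22.1 CPM, with WT far above both knockouts and Dgcr8-/- cells lowest. Lama1 was 15.9-fold below WT in Dgcr8-/- cells (12.3 to 21.0). The level in the Dicer knockout was 3.95-fold lower than in WT (3.44 to 4.54), and the Dgcr8 knockout was a further 4.03-fold below it (3.04 to 5.41). On the log2(CPM + 1) scale, Lama1 had the sixth lowest ratio to WT of all 13223 rows in the Dgcr8 knockout. Lama5, the alpha chain of a laminin widely used to support stem cell self-renewal, had 95.5 CPM in WT, 220.2 in Dgcr8-/- and 242 in Dicer-/- cells. It was 2.31-fold (2.14 to 2.49) and 2.53-fold (2.35 to 2.73) above WT. Of the counts of Lama1 and Lama5 together, Lama1 held 47.8% in WT (95% exact interval 45.4 to 50.1), 2.43% in Dgcr8-/- (1.86 to 3.11) and 8.38% in Dicer-/- cells (7.45 to 9.39). These shares are of counts, which also depend on transcript length, and are read only from one library to another.

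Lama3, an alpha chain of epithelial laminin, had 5.03 CPM in WT, 8.63 in Dgcr8-/- and 17.5 in Dicer-/- cells. Only the Dicer knockout passed 2-fold, at 3.49 times WT (2.55 to 4.84). Lama4, found in vessel and muscle laminins, had 29, 6 and 10 counts and was called lower in both knockouts, 5.41-fold (2.21 to 15.9) and 3.59-fold (1.70 to 8.27).

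The beta chains differed between the knockouts. Lamb1, the partner of most early laminins, had 108 CPM in WT, 49.8 in Dgcr8-/- and 97.0 in Dicer-/- cells. It was 2.18-fold lower than WT in the Dgcr8 knockout (1.96 to 2.42) and close to WT in the Dicer knockout, 1.12-fold lower (1.03 to 1.21). Lamb2, the beta chain of synaptic and kidney laminins, went the other way in the Dgcr8 knockout, with 34.7 CPM in WT, 78.2 there and 45.6 in the Dicer knockout. It was 2.25-fold above WT in the Dgcr8 knockout (1.99 to 2.56) and 1.31-fold in the Dicer knockout (1.15 to 1.505). Lamb1 thereby held 75.7% of the counts of Lamb1 and Lamb2 in WT (73.4 to 77.9), 38.9% in Dgcr8-/- (36.4 to 41.5) and 68.0% in Dicer-/- cells (65.8 to 70.2). The epithelial chain Lamb3 had 59, 42 and 107 counts and passed 2-fold only between the knockouts.

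Lamc1, the gamma chain of most laminins, was higher in both knockouts without passing 2-fold. It had 373 CPM in WT, 736 in Dgcr8-/- and 477 in Dicer-/- cells. Its ratios to WT were 1.97 (1.90 to 2.05) and 1.28 (1.23 to 1.33). Of the 9 laminin genes, 2 were called higher and 3 lower in the Dgcr8 knockout, beside 14.3% and 8.02% of all rows, and 2 and 2 in the Dicer knockout, beside 16.0% and 9.7%.

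**Figure D2:**
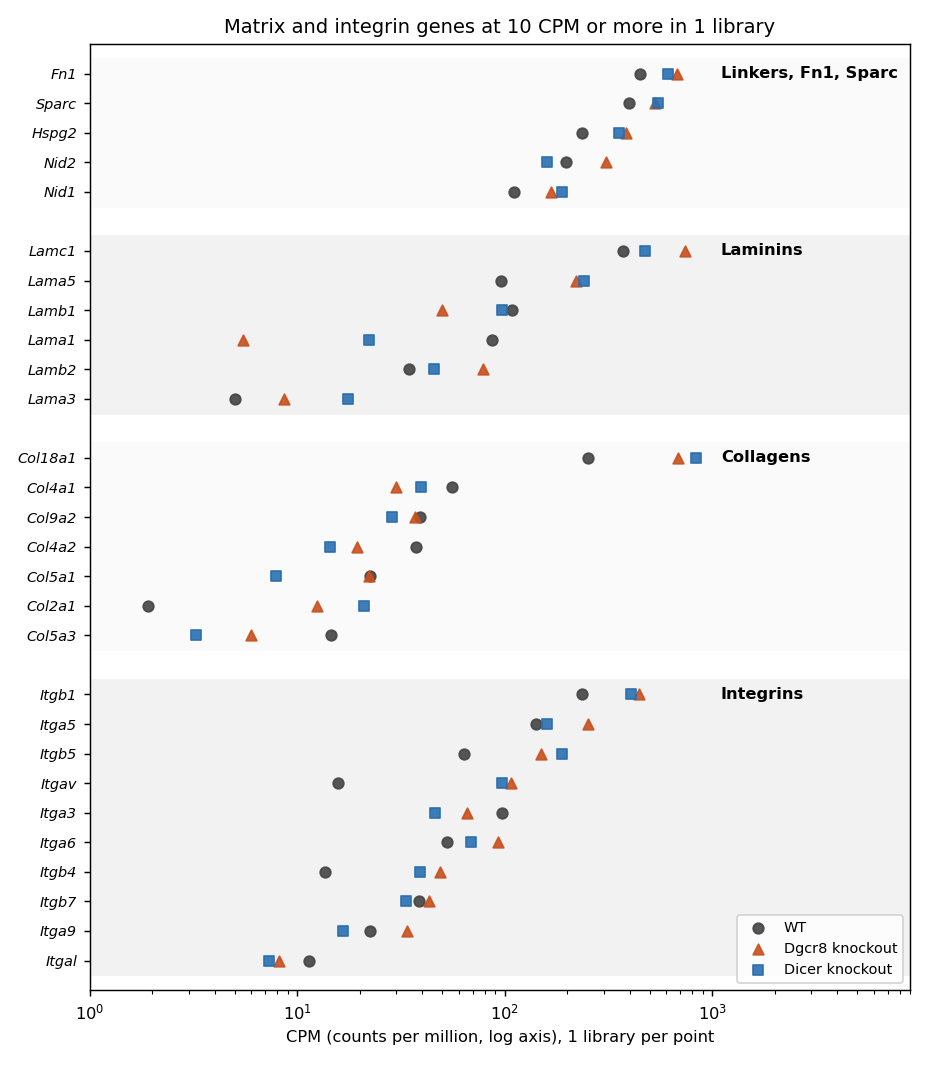
CPM on a log axis in WT (circles), the Dgcr8 knockout (triangles) and the Dicer knockout (squares) for 28 members at 10 CPM or more in 1 library, 1 library per point. Lama1 is widely spread with WT highest, while Itgav, Itgb4, Col2a1 and Col18a1 have WT lowest and both knockouts well above it.

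The linkers, fibronectin and Sparc stayed within 2-fold of WT. Fn1, which encodes the fibronectin that integrins bind through an Arg-Gly-Asp site, had 450 CPM in WT, 677 in Dgcr8-/- and 614 in Dicer-/- cells. Its ratios were 1.51 (1.45 to 1.56) and 1.36 (1.31 to 1.42). Hspg2, the heparan sulphate proteoglycan perlecan, had 235, 384 and 353 CPM, and both knockouts were above WT by 1.64-fold (1.56 to 1.72) and 1.51-fold (1.43 to 1.58). Sparc, a secreted collagen-binding protein, had 395, 528 and 547 CPM, with ratios of 1.34 (1.28 to 1.39) and 1.38 (1.33 to 1.44). The nidogens bind laminin to type IV collagen, and they differed between the knockouts. Nid1 had 110 CPM in WT, 168 in Dgcr8-/- and 188 in Dicer-/- cells. Nid2 had 198, 309 and 159 CPM, so that only the Dgcr8 knockout was above WT, by 1.56-fold (1.48 to 1.65), and the Dicer knockout was 1.24-fold below (1.17 to 1.32).

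Among the collagens, most of the counts belonged to Col18a1, a basement membrane collagen whose C-terminal fragment is endostatin. It had 253 CPM in WT, 686 in Dgcr8-/- and 840 in Dicer-/- cells. Both knockouts lay well above WT, 2.72-fold (2.60 to 2.84) and 3.33-fold (3.18 to 3.48). Col18a1 held 53.8% of all collagen counts in WT (52.3 to 55.2), 83.0% in Dgcr8-/- (82.2 to 83.8) and 85.7% in Dicer-/- cells (85.1 to 86.3). The other 23 collagens together had 217 CPM in WT, 141 in Dgcr8-/- and 140.2 in Dicer-/- cells. The larger collagen sum of the knockouts was therefore that of 1 gene, and the rest of the class summed to less than in WT.

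**Figure D3:**
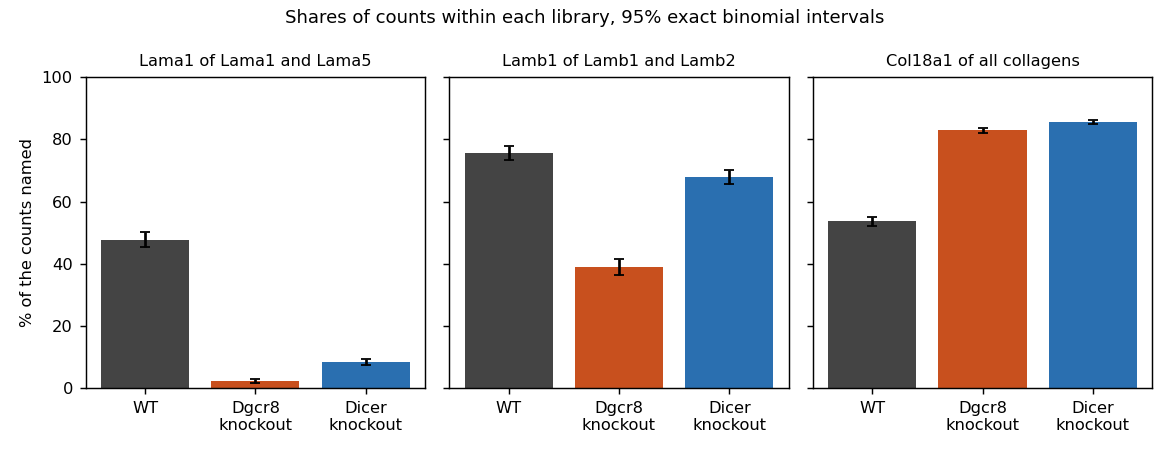
Share of counts within each library, in percent, of Lama1 among Lama1 and Lama5, of Lamb1 among Lamb1 and Lamb2, and of Col18a1 among all collagens; bars are 1 library each and error bars are exact 95% binomial intervals for counting error. Lama1 is at 47.8% in WT and at 2.43% and 8.38% in the knockouts, Lamb1 is lowest in the Dgcr8 knockout, and Col18a1 exceeds 80% in both knockouts.

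Col4a1 and Col4a2 encode the chains of the main type IV collagen network, and they are neighbours that point away from each other. Col4a1 had 55.6 CPM in WT, 30.03 in Dgcr8-/- and 39.6 in Dicer-/- cells. Col4a2 had 37.6, 19.5 and 14.5 CPM. WT was highest for both genes. In the Dgcr8 knockout their ratios were nearly the same, 1.85-fold lower for Col4a1 (1.61 to 2.13) and 1.93-fold lower for Col4a2 (1.62 to 2.29). Scaling by median-ratio size factors brought both to the 2-fold line, at log2 ratios of -1.002 and -1.04. In the Dicer knockout they parted, with Col4a1 1.40-fold lower (1.24 to 1.59) and Col4a2 2.60-fold lower (2.17 to 3.12).

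The 2 promoter windows are shown because the pair shares one start region. Each runs from 250 bases before to 50 after the RefSeq start, on the gene's own strand, and capitals mark the 78 bases that both windows hold, as reverse complements. The build is GRCm38.p6, not the mm9 of the counts. The windows are chr8:11312777-11313076, minus strand, for Col4a1 and chr8:11312555-11312854, plus strand, for Col4a2.
Col4a1: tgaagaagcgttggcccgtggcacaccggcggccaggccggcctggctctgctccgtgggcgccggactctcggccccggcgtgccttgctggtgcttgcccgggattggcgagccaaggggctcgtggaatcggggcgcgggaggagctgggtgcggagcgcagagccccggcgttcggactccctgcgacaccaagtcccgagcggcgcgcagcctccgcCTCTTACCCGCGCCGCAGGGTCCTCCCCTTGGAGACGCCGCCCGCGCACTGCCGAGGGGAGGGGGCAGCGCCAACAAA
Col4a2: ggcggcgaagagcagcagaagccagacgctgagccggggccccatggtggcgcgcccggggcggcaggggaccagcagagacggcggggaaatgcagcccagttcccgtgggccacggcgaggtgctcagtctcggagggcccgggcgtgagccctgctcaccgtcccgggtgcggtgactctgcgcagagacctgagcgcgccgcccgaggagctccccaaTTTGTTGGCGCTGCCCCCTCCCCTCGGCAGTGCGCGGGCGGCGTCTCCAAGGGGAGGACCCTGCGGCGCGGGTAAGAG
The RefSeq starts used for these windows lie 21 bases apart, at chr8:11312826 for Col4a1 and chr8:11312805 for Col4a2. Each start lies downstream of the other, so the first bases of the 2 genes overlap and leave no gap. The shared stretch holds 1 match to the GC box letters GGGCGG, at chr8:11312812-11312817. The Col4a2 window holds 2 further GC box matches outside it and the Col4a1 window holds 0. Each window has 1 match to the CCAAT box letters CCAAT. That of Col4a1 lies outside the shared stretch, and that of Col4a2, at chr8:11312773-11312777, ends on its first base. Neither window holds the TATA box letters TATAAA. Motifs were searched on both strands, and no matches overlapped in these windows. Windows were found for 36 of the 56 genes, 40 windows in all. GGGCGG was in 65.0% of these 40 windows and in 35.7% of all 32851 windows in the table, CCAAT in 27.5% and 37.4%, and TATAAA in 5.0% and 13.6%. Matches describe the letters and not binding.

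The fibrillar collagens, which form the banded fibres of connective tissue and cartilage, were low and mixed. Col2a1, the cartilage collagen also made in early neural and notochord tissue, had 19 counts in WT, 138 in Dgcr8-/- and 257 in Dicer-/- cells. WT was lowest, and the knockouts were 6.48-fold (3.999 to 11.1) and 10.9-fold higher (6.85 to 18.4). Col5a1, a regulator of fibre width, had 22.4, 22.2 and 7.88 CPM, so that only the Dicer knockout stood apart, 2.84-fold below WT (2.22 to 3.64). Its relative Col5a3 had 14.5, 6.02 and 3.25 CPM and was lower in both, 2.41-fold (1.79 to 3.27) and 4.46-fold (3.12 to 6.50). Col5a2 had an empty cell, read as 0, in WT, 2 counts in Dgcr8-/- and 54 in Dicer-/- cells, the latter at least 14.5-fold above WT when 3 counts are taken as the limit for that library's 0. Col1a1, the main bone and skin collagen, had 97 counts in WT, 6 in Dgcr8-/- and 5 in Dicer-/- cells, 18.1-fold (8.02 to 50.6) and 24.0-fold lower (9.96 to 75.7). Both knockouts were close to 0 for this gene.

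Of 12 markers of feeder fibroblasts, 3 were listed, and 2 of these were called lower in each knockout, Thy1 in both, S100a4 in Dgcr8-/- cells and Pdgfrb in Dicer-/- cells. Their summed level was 31.4 CPM in WT, 10.5 in Dgcr8-/- and 2.60 in Dicer-/- cells. Thy1 had 175, 23 and 16 counts, Pdgfrb 126, 94 and 10, and S100a4 11, 0 and 6. Of all rows 8.02% and 9.7% were called lower. The genes behind the lower calls of S100a4 and Pdgfrb passed the floor only through WT in those comparisons. The other 9, with Postn, Lum and Dcn among them, were not analysed here, and the part of other cells in the Col1a1 values was not tested. In bulk RNA, fewer cells of a type and less RNA per cell cannot be told apart.

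Of the collagens outside these classes, Col9a2, which coats cartilage fibres, was the one above 10 CPM, with 38.9 CPM in WT, 36.8 in Dgcr8-/- and 28.6 in Dicer-/- cells. It was 1.06-fold (0.917 to 1.22) and 1.36-fold (1.17 to 1.57) below WT. The transmembrane collagen gene Col13a1 had 83, 23 and 6 counts, highest in WT and lowest in Dicer-/- cells, 4.04-fold (2.52 to 6.72) and 17.1-fold below WT (7.55 to 48.1). Col26a1 had 43, 4 and 15 counts. The microfibril genes Col6a2 (25, 3 and 3 counts) and Col6a4 (20, 0 and 2) were called lower in both knockouts. Their relative Col6a1 had 11, 2 and 2 counts, and Col6a5, with 14, 5 and 37, was highest in the Dicer knockout. The fibrillar Col27a1 had 21, 0 and 3 counts. Col7a1, Col8a2, Col9a3, Col11a1, Col17a1 and Col22a1 were compared and not called in either knockout, with 2 to 63 counts. Col14a1 and Col15a1 were below the floor, with 2 to 12 counts. Calls of genes at such counts move with the pseudocount: with 5 CPM added in place of 1, 3 members were called lower in Dgcr8-/- cells and 6 in Dicer-/- cells. Of all rows 3.11% and 4.41% were then called lower.

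Of 8 genes reported elsewhere as miR-29 targets, 6 were in the table. In the Dgcr8 knockout 0 of 5 compared were called higher and 1, Col1a1, lower. In the Dicer knockout 0 were higher and 2, Col1a1 and Col4a2, lower. Of the uncalled ones, Lamc1 and Sparc were above WT in both knockouts and Col4a1 below it in both, each by less than 2-fold, as given above. Over all rows 14.3% were higher and 8.02% lower in Dgcr8-/- cells, and 16.0% and 9.7% in Dicer-/- cells. With 5 genes compared, these counts cannot be told apart from such shares. Col1a1 passed the floor only through WT in both comparisons and could not have been called higher.

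Among the integrin chains that bind Arg-Gly-Asp ligands such as fibronectin, Itgav and Itgb5 were higher in both knockouts. Itgav, an alpha chain that pairs with several beta chains and can activate latent TGF-beta, had 156 counts in WT, 1189 in Dgcr8-/- and 1188 in Dicer-/- cells. At 15.7, 107 and 96.5 CPM, WT was lowest and the knockouts nearly equal. Itgav was 6.81-fold (5.75 to 8.09) and 6.14-fold (5.20 to 7.31) above WT. Its partner Itgb5 had 63.4, 149 and 188 CPM, 2.35-fold (2.14 to 2.58) and 2.97-fold (2.72 to 3.25) above WT. Itgb3, another beta chain that pairs with Itgav, had 82, 57 and 115 counts and was not called. Itga5, the classical fibronectin receptor chain, had 141 CPM in WT, 251 in Dgcr8-/- and 159 in Dicer-/- cells. Its ratios were 1.77 (1.66 to 1.89) and 1.13 (1.05 to 1.21), below 2-fold in both. The platelet chain Itga2b had 26, 5 and 5 counts and was called lower in both.

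Itgb1, the common beta chain of most matrix receptors, had 235 CPM in WT, 443 in Dgcr8-/- and 406 in Dicer-/- cells. It was 1.89-fold (1.80 to 1.98) and 1.73-fold (1.65 to 1.82) above WT, just under the 2-fold line.

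The laminin-binding chains split by gene. Itgb4, the beta chain of hemidesmosomes, had 13.6 CPM in WT, 48.5 in Dgcr8-/- and 39.2 in Dicer-/- cells, 3.57-fold (2.95 to 4.35) and 2.88-fold (2.38 to 3.51) above WT. Itga6, the alpha chain that pairs with Itgb4 or Itgb1 and is abundant on stem cells, had 52.6, 93.0 and 68.6 CPM, with ratios of 1.77 (1.59 to 1.97) and 1.31 (1.17 to 1.46). Itga3 went the other way, with 97.4, 65.6 and 46.2 CPM, 1.48-fold (1.35 to 1.64) and 2.11-fold (1.90 to 2.34) below WT. WT was thus lowest for Itga6 and Itgb4 and highest for Itga3. The muscle chain Itga7 had 45, 14 and 4 counts and was called lower in both knockouts. Of the collagen-binding chains, Itga10 had 42, 13 and 27 counts and was called lower in the Dgcr8 knockout, and Itga1 had 0, 4 and 11 counts and was below the floor.

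The remaining integrins are best known from leukocytes or bind other ligands. Itgb7 had 38.7 CPM in WT, 43.0 in Dgcr8-/- and 33.5 in Dicer-/- cells. Itga9, a receptor for tenascin and other ligands, had 22.5, 33.9 and 16.6 CPM, above WT only in the Dgcr8 knockout (1.51-fold, 1.28 to 1.79). Itgal had 11.4, 8.18 and 7.31 CPM. None of these 3 was called in either knockout. Itgae (21, 4 and 6 counts) and Itgam (21, 0 and 2) were called lower in both, and Itga4 had 6, 8 and 20 counts. Of the integrins, 3 of 16 compared were higher in Dgcr8-/- cells and 3 of 17 in Dicer-/- cells, namely Itgav, Itgb4 and Itgb5 in each, near the 14.3% and 16.0% of all rows. In each knockout 5 were lower, beside 8.02% and 9.7% of all rows. Apart from Itga3 these had low counts, and 3 of the 5 in Dgcr8-/- cells and 4 of the 5 in Dicer-/- cells passed the floor only through WT.

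**Figure D4:**
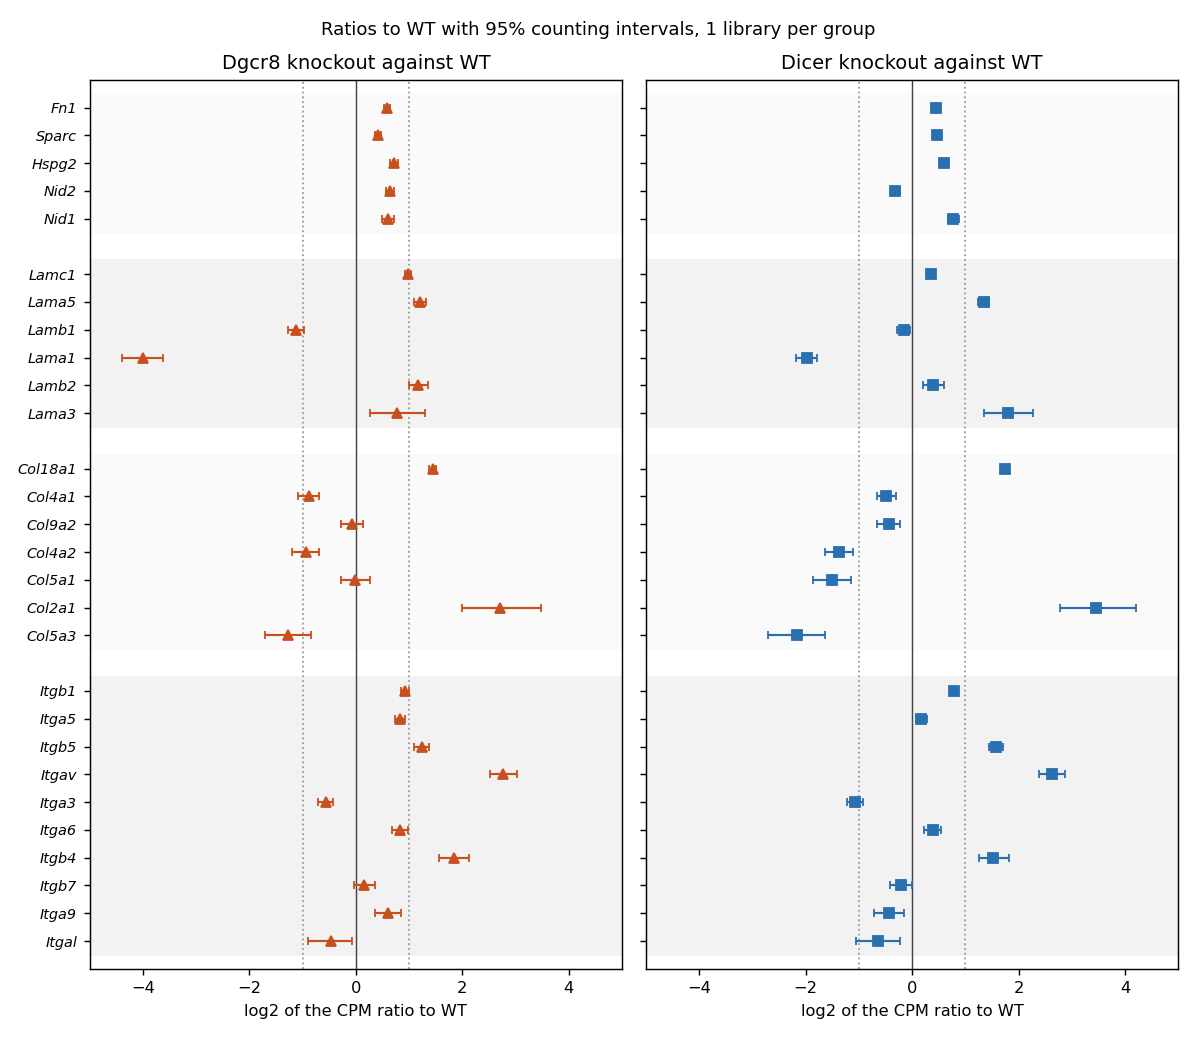
Log2 ratio of CPM to WT for 28 members at 10 CPM or more in 1 library, in the Dgcr8 knockout (left) and the Dicer knockout (right); points are ratios of 1 library to 1 library and bars are exact 95% intervals for counting error. Dotted lines mark 2-fold; Itgav, Col2a1, Itgb4, Col18a1, Itgb5 and Lama5 lie above it in both panels, and Lama1 and Col5a3 below it.

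Both comparisons use the same WT library, so the members' values in the knockouts are set side by side above and no agreement between them is measured. The knockouts were also compared with each other. Of 42 members compared, 2 were higher in the Dgcr8 knockout, Col5a1 and Col13a1, and 4 lower, Lama1, Lamb3, Col5a2 and Col6a5. Over 12986 rows, 4.15% were higher and 5.05% lower. Col13a1 passed the floor only through Dgcr8-/- cells and could not have been called lower. Col5a2 and Col6a5 passed it only through Dicer-/- cells and could not have been called higher. Of the 29 members at 10 CPM or more 1 was higher and 1 lower, beside 3.23% and 3.14% of rows at that level, and of 13 compared below it 1 was higher and 3 lower, beside 6.94% and 10.9%. Col5a1 was 2.82-fold higher in the Dgcr8 knockout (2.22 to 3.60) and Lamb3 2.30-fold lower (1.60 to 3.37). Itga9, at 2.05-fold higher (1.72 to 2.44), and Nid2, at 1.94-fold (1.84 to 2.05), lay at the 2-fold line and were not called. Lamb1 and Lama3 were lower in the Dgcr8 knockout by 1.95-fold (1.76 to 2.16) and 2.03-fold (1.59 to 2.61). Of the 14 integrins compared 0 were called. Itga7, with 14 and 4 counts, was 3.87-fold higher in the Dgcr8 knockout (1.22 to 16.2) but below 2-fold on the log2(CPM + 1) scale.

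**Figure D5:**
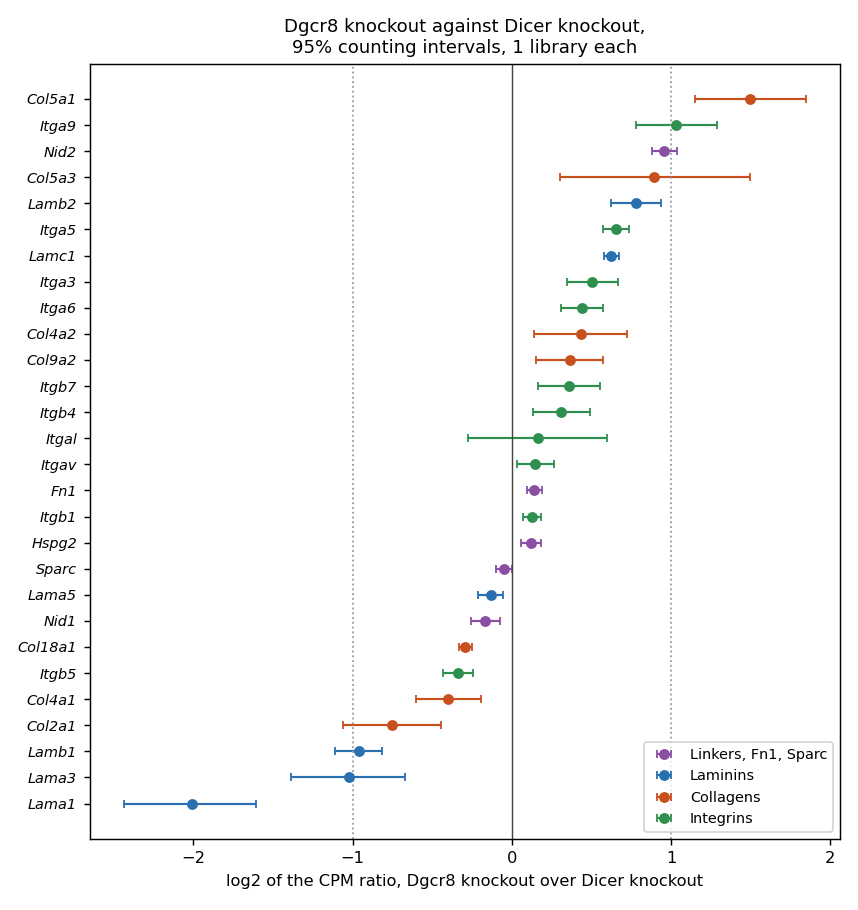
Log2 ratio of CPM in the Dgcr8 knockout to the Dicer knockout for 28 members at 10 CPM or more in 1 library, ordered by ratio; bars are exact 95% intervals for counting error, 1 library each. Most genes lie between the dotted 2-fold lines, with Lama1 farthest to the left and Col5a1 farthest to the right.

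Genes that act with these proteins were read against the same shares of all rows, 14.3% higher and 8.02% lower in Dgcr8-/- cells and 16.0% and 9.7% in Dicer-/- cells. The enzymes that prepare collagen were mostly near WT. Of 17 genes of collagen modification and secretion compared in the Dgcr8 knockout, 2 were higher and 1 lower, and in the Dicer knockout 1 of 16 was higher and 3 lower. Mia3, which loads collagen into carriers at the endoplasmic reticulum, had 49.0 CPM in WT, 153 in Dgcr8-/- and 127 in Dicer-/- cells. The prolyl hydroxylase genes P4ha1 (76.0, 59.9 and 31.5 CPM) and P4ha2 (33.6, 11.1 and 5.93) and the lysyl hydroxylase gene Plod2 (83.9, 48.9 and 33.2) had WT highest. P4ha2 was called lower in both knockouts, and P4ha1 and Plod2 in the Dicer knockout. Colgalt2, at a log2 ratio of 1.02, was the other gene higher in the Dgcr8 knockout. WT was below the floor for Colgalt2, which could not have been called lower.

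Of 10 processing and crosslinking genes, 2 were higher and 2 lower in each knockout. The lysyl oxidase relative Loxl4 had 24 counts in WT, 296 in Dgcr8-/- and 87 in Dicer-/- cells, and Tll1 was the other one higher. WT was below the floor for Tll1, which could not have been called lower in either knockout. Loxl2, which crosslinks type IV collagen, had 48.7, 18.7 and 12.2 CPM, and the procollagen protease gene Bmp1 had 14.2, 4.23 and 2.60 CPM, so both were lower in the knockouts. Among 13 genes of matrix degradation, 3 were higher and 3 lower in the Dgcr8 knockout, and 4 and 3 in the Dicer knockout. In each knockout 1 of the 3 lower calls was of a gene that passed the floor only through WT. The membrane protease gene Mmp14 had 15.6, 49.3 and 54.5 CPM. The secreted protease gene Mmp2 had 38.6, 10.2 and 10.6 CPM and the inhibitor gene Timp2 18.3, 7.19 and 2.11 CPM. The protease that sits on the membrane was thus higher in the knockouts, and the secreted one that it activates was lower.

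Of other matrix receptors, 2 of 14 were higher in the Dgcr8 knockout, which is the share of all rows, and 1 of 13 in the Dicer knockout, and 0 were lower in either. Sdc4, a syndecan that works with integrins, had 58.3, 136 and 299 CPM, and Ddr2 was higher in the Dgcr8 knockout. WT was below the floor for Ddr2, which could not have been called lower there. Dag1, which encodes the laminin receptor dystroglycan, had 139, 268 and 226 CPM, Sdc1 42.9, 85.0 and 73.8 CPM, and the integrin-binding tetraspanin gene Cd151 34.5, 66.0 and 65.0 CPM, all 3 short of 2-fold. Of 27 genes acting inside the cell at integrin adhesions, 3 were higher and 1 lower in the Dgcr8 knockout, and 5 and 4 in the Dicer knockout. Parva, an adaptor between integrin-linked kinase and actin, had 78 counts in WT, 534 in Dgcr8-/- and 856 in Dicer-/- cells. Vcl and Arhgef7 were also higher in the Dgcr8 knockout. The kindlin gene Fermt1 had 3, 10 and 111 counts and was called higher in the Dicer knockout, and below the floor in the other comparison with WT. It passed the floor only through Dicer-/- cells and could not have been called lower. Ptk2b, Zyx and Lims1 were also called higher in Dicer-/- cells, and lay above WT by less than 2-fold in Dgcr8-/- cells. Lims2, a partner of Parva, had 58, 4 and 10 counts and was lower in both. It passed the floor only through WT in both comparisons and could not have been called higher. Itgb3bp, Parvb and Tns1 were lower in the Dicer knockout, and Itgb3bp had 122, 63 and 27 counts.

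Of other matrix glycoproteins, 8 of 19 were higher in the Dgcr8 knockout and 3 lower, and in the Dicer knockout 10 of 21 were higher and 1 lower. Fras1, of a complex that anchors embryonic epithelium, had 0 counts in WT, 30 in Dgcr8-/- and 310 in Dicer-/- cells. Smoc1 had 25, 42 and 381 counts, and Thbs1 2, 21 and 276. Npnt, an integrin ligand of basement membranes, had 14, 66 and 167 counts. All 4 were highest in the Dicer knockout. The proteoglycan gene Bgn was lower in both, at log2 ratios of -1.77 and -1.99. It passed the floor only through WT and could not have been called higher. The same held for 2 of the 3 lower calls in Dgcr8-/- cells, Bgn included, and for the 1 lower call in Dicer-/- cells, which was Bgn. WT was below the floor for 3 of the 8 higher calls in Dgcr8-/- cells (Fras1, Thbs1 and Sparcl1) and for 5 of the 10 in Dicer-/- cells (Fras1, Thbs1, Ntn4, Thbs2 and Efemp1), which could not have been called lower.

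Markers of endoderm, a cell type that makes much laminin and type IV collagen, did not move as one list. Of 12 primitive endoderm markers 10 were listed, with summed levels of 253 CPM in WT, 359 in Dgcr8-/- and 1021 in Dicer-/- cells, most of it from Apoe (227, 335 and 956 CPM). Hnf4a had 99 counts in WT and 0 in both knockouts, and Gata6 had 11, 3 and 0. Gata4 had 15, 86 and 75 counts and Lrp2 24, 157 and 688. In the Dgcr8 knockout 2 were higher and 4 lower, and in the Dicer knockout 3 and 4. For each list here, the shares of all rows were 14.3% higher and 8.02% lower in Dgcr8-/- cells, and 16.0% and 9.7% in Dicer-/- cells. All 4 lower calls in each knockout were of genes that passed the floor only through WT and could not have been called higher. The 7 listed markers of parietal endoderm, which include Sparc, Lamb1 and Col4a1 themselves, summed to 601 CPM in WT, 628 in Dgcr8-/- and 709 in Dicer-/- cells. Sparc made up most of these sums. Of the 7, 0 were called higher and 2 lower in the Dgcr8 knockout, with a median log2 ratio of -0.83, and 1 higher and 1 lower in the Dicer knockout, with a median of -0.16. Lamb1, Krt19, Col4a1 and Snai1 lay below WT in both. Of the mesenchyme markers, 3 of 5 were higher and 1 lower in the Dgcr8 knockout, and 5 of 6 and 1 in the Dicer knockout, with a summed level of 105 CPM in WT, 607 and 399. Vim made up most of that sum, with 77.1, 562 and 338 CPM. WT was below the floor for 1 of the 3 higher calls in Dgcr8-/- cells (Cdh2) and for 2 of the 5 in Dicer-/- cells (Cdh2 and Zeb2). These could not have been called lower. The part of endoderm or mesenchyme cells in the values of Lama1, the type IV collagens and the integrins was not tested.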

How the data were processed

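The authors deposited unnormalized counts, one table by RefSeq transcript for the mRNA and one by mature miRNA for the small RNA. Bowtie and mm9 are named, per the submitters' processing notes. The counting tool, its annotation and any use of strand are not stated there, so reads of overlapping genes may not be separated. An empty cell was taken as 0. All mRNA rows have 10 or more counts in some library; genes under that were not analysed here. Counts from 2 to 9 were even for 69.6% to 74.8% of rows, which paired reads counted separately would give, and intervals are then too narrow. PCR reads are not independent molecules, so intervals and floors cover counting error only.

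Members were matched by symbol, without Itgb1bp1, Itgb3bp, Col4a3bp and Sparcl1, and each had 1 row. Counts were scaled to CPM over each library (1 CPM is 9.93 to 12.3 counts). Log2 ratios used a pseudocount of 1 CPM, which understates changes of low genes, and a floor of 1 CPM. CPM ratios have exact conditional binomial 95% intervals, and a count of 0 was set against 3 counts in that library. The call rule was checked on simulated independent counts, with changes of 4-fold in rows of higher counts. That check does not cover members near the floor or reads counted in pairs. Named are members at 10 CPM or more in 1 library with values, the others with counts, and up to 4 genes at 5 CPM or more of each further list with the largest ratio to WT; further genes were named, after their values were seen, where a count was small. A member and a gene of a further list that the rule names are counted but not reported here. The members, lists and settings were chosen with earlier results of these data known. Promoters and miRNAs come from RefSeq tables of GRCm38.p6, matched by symbol or name. Python 3.11.15, scipy 1.17.1, R 4.3.3 and edgeR 4.0.16 (TMM factors only) were used. Alternatives changed the pseudocount (0.1 and 5 CPM), the floor (5 CPM or none), the scaling (TMM or median-ratio), the fold (1.5 and 4), rows sharing a symbol, and integrin-like members.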

Additional observations from a re-analysis of the deposited data

How the results depend on the processing

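With 1 library per group no replicate could be left out, and no paired analysis was possible because each group has 1 sample. Median-ratio factors moved the median log2 ratio of all rows by -0.13 in Dgcr8-/- and -0.11 in Dicer-/- cells, and TMM by -0.11 and -0.10. Members higher and lower were then 7 and 17, and 7 and 16 with TMM, in Dgcr8-/- cells, with Col4a1 and Col4a2 newly lower under median-ratio factors, and 8 and 16 with both in Dicer-/- cells. Shares of all rows in Dgcr8-/- cells were 11.8% and 10.2% with median-ratio factors and 12.2% and 9.78% with TMM. In Dicer-/- cells they were 14.2% and 11.5%, and 14.3% and 11.4%. No called member changed sign, but none could have. The pseudocount, floor and fold leave a sign as it is, and the scalings moved ratios by far less than 2-fold. The number of lower calls depended on low genes: with a pseudocount of 5 CPM it was 3 in Dgcr8-/- and 6 in Dicer-/- cells against WT, and with a floor of 5 CPM 5 and 7. The shares of all rows called lower fell too, to 3.11% and 4.41% with that pseudocount and to 6.42% and 8.37% with that floor. With that floor the members' median log2 ratios were 0.59 and 0.37 instead of -0.43 and -0.28, and those of all rows 0.15 and 0.12 instead of 0.11 and 0.10. A fold of 1.5 gave 17 higher and 23 lower members in the Dgcr8 knockout, beside 27.1% and 17.7% of all rows. In the Dicer knockout that fold gave 15 and 18, beside 28.0% and 19.7%. A fold of 4 gave 2 and 2 in the Dgcr8 knockout, beside 2.59% and 1.202% of all rows. In the Dicer knockout that fold gave 3 and 3, beside 4.02% and 1.74%. Between the knockouts, members higher and lower were 4 and 8 with a pseudocount of 0.1 CPM, 1 and 1 with 5 CPM, 1 and 2 with a floor of 5 CPM, 9 and 11 at 1.5-fold, and 0 and 1 at 4-fold. The shares of all rows, in that order, were 6.54% and 7.73%, 1.40% and 1.71%, 3.59% and 3.85%, 12.6% and 12.5%, and 0.485% and 0.878%. Having no floor, 1 row per symbol or no integrin-like genes changed none of the counts of calls; the table lists no member of the last 2 kinds.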
